A study of Mus musculus with 21 samples.

Results

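Mature miRNAs were compared between whole kidneys collected 28 days after folic acid and whole kidneys collected at day 0. The comparison used every library of both days, 3 per day, which is 6 of the 21 libraries of a course with 7 days of collection: day 0, days 1, 2, 3, 7 and 14, and day 28. Of 1125 miRNAs in the deposited table, 431 passed a filter on low counts and were tested. Day 28 is the last collection, so the comparison asks which miRNAs differed from their day 0 level at the end of the course. Folic acid at a high dose injures the renal tubules of mice and serves as a model in which acute injury is followed by interstitial fibrosis.

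The day 28 and day 0 mice were male BALB/c mice, aged 12 weeks per the labels, and folic acid was given at 250 mg/kg in sodium bicarbonate. The labels do not say whether the mice of day 0 had been injected, and the samples hold no untreated group at a later day. Folic acid, vehicle, age and the day of collection therefore cannot be told apart in this comparison. Nor do the labels tie each library to a mouse of its own, and p-values thus reflect the spread among libraries, which may be technical. In whole tissue, a change in the number of cells of a type and a change in the amount of a miRNA per cell cannot be told apart either.

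A miRNA is a short RNA cut from a hairpin precursor. It guides an Argonaute protein to messenger RNAs that pair with its seed, the stretch near its 5′ end, and these messengers are then repressed. Both arms of a hairpin can yield a mature miRNA (5p and 3p), and miRNAs with the same seed form a family with overlapping targets. In kidney, miR-192 and the miR-30 family are abundant in tubular epithelium, while miRNAs of fibroblasts, pericytes and leukocytes mark the interstitium and the cells that enter it after injury.

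The results below turn on a small set of mature miRNAs, shown 5′ to 3′ from RefSeq (build GRCm38.p6) with the seed, bases 2 to 8, in capitals. The first 13 are from miRNAs that were higher at day 28 and the last 5 from miRNAs that were lower.
miR-146b-5p: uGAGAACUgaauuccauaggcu
miR-146a-5p: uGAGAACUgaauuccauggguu
miR-31-5p: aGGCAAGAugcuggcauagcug
miR-199a-5p: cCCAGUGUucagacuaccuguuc
miR-199a-3p: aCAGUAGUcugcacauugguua
miR-214-3p: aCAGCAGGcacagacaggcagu
miR-223-3p: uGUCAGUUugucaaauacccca
miR-132-3p: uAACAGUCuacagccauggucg
miR-212-3p: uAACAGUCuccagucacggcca
miR-181a-5p: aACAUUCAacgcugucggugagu
miR-181c-5p: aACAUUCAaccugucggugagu
miR-181d-5p: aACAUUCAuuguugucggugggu
miR-21-5p: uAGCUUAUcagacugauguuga
miR-101a-5p: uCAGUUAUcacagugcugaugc
miR-101a-3p: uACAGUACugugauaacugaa
miR-101c: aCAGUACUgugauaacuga
miR-193-3p: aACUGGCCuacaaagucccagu
miR-33-5p: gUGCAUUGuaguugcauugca

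Several of these share a seed. miR-146a-5p and miR-146b-5p both carry GAGAACU and differ at 2 of 22 positions, and miR-132-3p and miR-212-3p both carry AACAGUC and differ at 5 of 22. miR-181a-5p, miR-181c-5p and miR-181d-5p all carry ACAUUCA. The sequence of miR-199a-3p is also that of miR-199b-3p, and the deposited table holds identical reads for both, so they are 1 measurement under both names. miR-101c, at 19 bases, is contained in miR-101a-3p from base 2 on, so their reads may not be fully separable. RefSeq held a mature sequence for 322 of the 431 tested miRNAs and for 43 of the 56 that passed the test.

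Levels are given as TMM-scaled CPM: the authors deposited CPM, counts of reads scaled to the same total per library over miRNAs, and a trimmed-mean factor per library was applied to them. Depth in the 6 libraries ran from 3571696 to 5886820 reads assigned to miRNAs, so that 3 reads, the limit a count of 0 allows, correspond to 0.510 to 0.840 CPM. This limit covers counting error only. Differences are log2 fold changes of day 28 over day 0 of log2(CPM + 1) values, so the change of a scarce miRNA is understated. They were tested with limma in 1 fit over all 21 libraries, and a miRNA was called at a Benjamini-Hochberg adjusted p under 0.05. Adjusted p-values without a named tool are limma's.

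At day 28, 56 of 431 miRNAs (13.0%) differed from day 0. Of these, 48 (11.1%) were higher and 8 (1.86%) were lower. The median log2 fold change was 0.90 among the 48, -0.69 among the 8 and 0.034 over all tested miRNAs. Among the rises, 17 reached a log2 fold change of at least 1, and no called fall did. In all 56, the 3 libraries of day 28 did not overlap the 3 of day 0, as was the case for 145 (33.6%) of all tested miRNAs. With upper-quartile scaling the calls split into 40 higher and 29 lower, and with the deposited library totals into 34 and 11. Those scalings put the median of all tested miRNAs at -0.08 and -0.04. Without the first day 28 library, 37 miRNAs were called, 34 higher and 3 lower. The 95% interval of a single fold change had a median half-width of 0.38 on the log2 scale, so that many smaller differences were not detectable with 3 libraries per day.

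**Figure D1:**
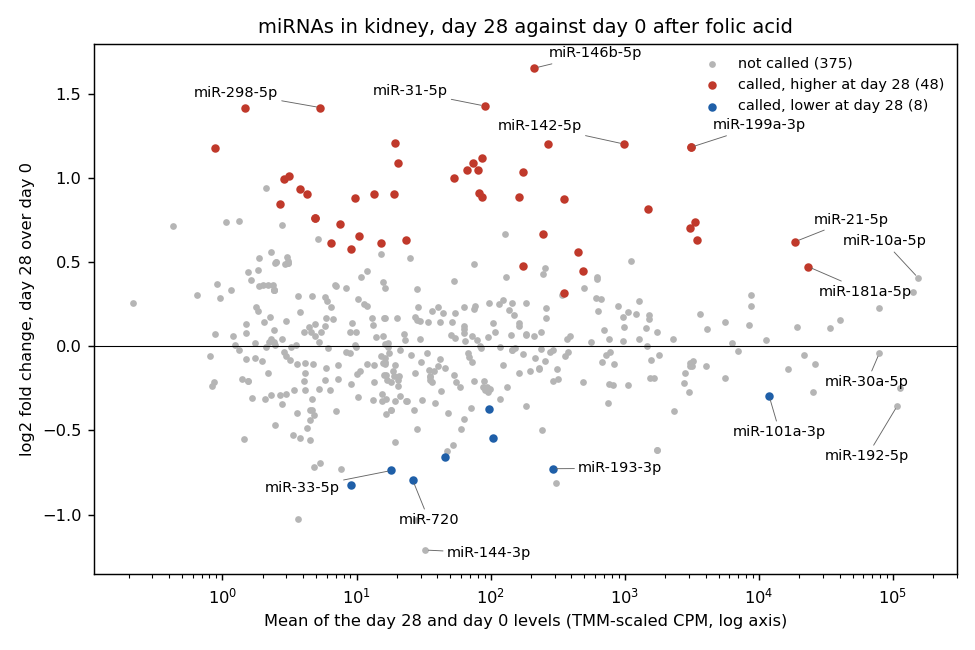
Each point is 1 of the 431 tested miRNAs, placed by the mean of its day 28 and day 0 levels (TMM-scaled CPM, log axis) and by its log2 fold change, day 28 over day 0; red points are the 48 called higher, blue points the 8 called lower and grey points the 375 not called. The most abundant call is miR-181a-5p, at a mean of 21399 CPM, and no miRNA above that level was called; the largest rises, miR-146b-5p and miR-31-5p, exceed the size of any called fall.

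None of the 10 most abundant miRNAs of day 0 was called. Together they held 73.0% ± 0.881 of the reads at day 28 and 73.8% ± 0.984 at day 0 (SD, n = 3 each); at day 7 of the same course they had held 65.2% ± 0.494. The 48 miRNAs called higher held 7.03% ± 0.572 of the reads at day 28 and 4.74% ± 0.229 at day 0. Of 57 tested miRNAs whose mean reached 1000 CPM, 9 were called, close to the 13.0% of all tested miRNAs. On the first principal component of all 21 libraries, with 41.1% of the variance, the day 28 libraries lay between -5.39 and -2.66, and the day 0 libraries between -10.60 and -10.20. The means of days 1, 2, 3, 7 and 14 on it were -2.40, 1.56, 5.19, 6.77 and 3.26.

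Mesenchymal miRNAs, from the hairpins of miR-199 and miR-214, rose together. miR-199a and miR-214 are processed from Dnm3os, a noncoding RNA transcribed opposite to an intron of Dnm3, and are known from fibroblasts and other mesenchymal cells. In GRCm38, miR-199a-3p lies at chr1:162217883-162217904 and miR-214-3p at chr1:162223438-162223459, both on the plus strand in an exon of Dnm3os. A second copy of miR-199a lies opposite to an intron of Dnm2 on chromosome 9, and miR-199b opposite to an intron of Dnm1 on chromosome 2. All 6 tested members of this list were called higher, with a median of 1.18, against 11.1% of all tested miRNAs. This list and those below were chosen with earlier results of these data known. Their counts are therefore descriptive and not independent support.

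miR-199a-3p, the most abundant of them, had 4695, 3747 and 4551 CPM in the day 28 libraries and 2184, 1772 and 1769 CPM in the day 0 libraries. The lowest day 28 library was well above the highest of day 0, and the log2 fold change was 1.18 (SE 0.15, adjusted p = 8.17e-06). Its partner arm miR-199a-5p had 408, 334 and 385 CPM at day 28 and 146, 159 and 185 CPM at day 0, a log2 fold change of 1.20. The neighbouring hairpin was higher on both arms. miR-214-3p had 99.4, 85.7 and 119.5 CPM at day 28 and 46.9, 43.4 and 50.1 CPM at day 0 (1.09, adjusted p = 0.000931 in limma), and miR-214-5p rose by 1.21. miR-199b-5p, whose hairpin lies elsewhere, rose by 1.09. Within the list the log2 fold changes spanned only 1.09 to 1.21, and none of the 6 overlapped between the days.

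miR-214-3p was lower at day 28 than at day 7 (day 28 minus day 7 -1.19, adjusted p = 0.000212) and lower than at day 14 (-0.86, adjusted p = 0.0132), by the limma contrasts between those days. For miR-199a-3p the same differences were -0.25 (adjusted p = 0.194) and -0.43 (adjusted p = 0.0587), neither past the threshold. Over the 7 days of collection, from day 0 to day 28, mean miR-199a-3p was 1909, 1899, 2064, 2933, 5119, 5960.4 and 4331 CPM. It was near its day 0 level on days 1 and 2 and highest on day 14. Mean miR-214-3p over the same days was 46.8, 67.8, 138, 248, 232, 195 and 102 CPM, with its highest mean on day 3.

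Leukocyte miRNAs were also higher. Of 12 tested members of the leukocyte list, 8 were called higher, against 11.1% of all tested miRNAs, and none lower, with a median of 0.86. The 8 include both arms of miR-142 and of miR-223, so they are not 8 separate transcripts. miR-142, whose hairpin is restricted to blood-forming lineages, rose on both arms: miR-142-5p had 1415, 1303 and 1405 CPM at day 28 and 509, 637 and 656 CPM at day 0 (log2 fold change 1.20, SE 0.15, adjusted p = 8.17e-06). miR-142-3p had 112, 107 and 135 CPM at day 28 and 54.7, 52.8 and 53.5 CPM at day 0 (1.12). For both arms the days did not overlap.

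The myeloid miR-223-3p had 84.9, 81.6 and 105 CPM in day 28 kidneys and 32.3, 46.5 and 52.7 CPM in day 0 kidneys, a log2 fold change of 1.05 (adjusted p = 0.00125). Its other arm, with 12 to 25 reads per library at day 28 and 6 to 8 at day 0, was called at 0.84, and that call held in 7 of the 17 alternative analyses that gave it a value. miR-342-3p, from an intron of Evl and known from lymphoid and myeloid cells, had 76.0, 56.4 and 82.6 CPM at day 28 and 31.0, 35.6 and 38.5 CPM at day 0 (1.00, adjusted p = 0.000517). miR-511-3p, from an intron of the macrophage mannose receptor gene Mrc1, was scarce, with 12 to 25 reads per library at day 28 and 5 to 9 at day 0; it was called at 1.00, a call that held in 8 of 17.

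The members of the leukocyte list that were not called were miR-150-5p, miR-155-5p, miR-342-5p and miR-511-5p. miR-150-5p, a miRNA of mature lymphocytes, had 375, 388 and 358 CPM at day 28 and 248, 297 and 374 CPM at day 0, and the third day 0 library overlapped day 28 (95% interval of the log2 fold change -0.10 to 0.71). miR-155-5p, which is induced in activated lymphocytes and macrophages, had 61.8, 70.9 and 70.8 CPM at day 28 and 60.4, 54.9 and 57.6 CPM at day 0; its log2 fold change of 0.23 had an adjusted p of 0.24 in limma. The smooth muscle and endothelial lists gave no call, against 13.0% of all tested miRNAs. They are too short to show whether they differ from that share. Of 4 smooth muscle miRNAs (miR-143 and miR-145, both arms) none passed, with a median of 0.14, and of 2 endothelial miRNAs (miR-126, both arms) none passed, with a median of -0.034.

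Levels summed over a list placed these changes on one scale. The 6 mesenchymal miRNAs summed to 7959 to 9963 CPM in the day 28 libraries and 3769 to 4585 CPM in the day 0 libraries, with the shared reads of miR-199a-3p and miR-199b-3p entering under both names. The 12 leukocyte miRNAs summed to 29111 to 30440 CPM at day 28 and 18783 to 24304 CPM at day 0, most of it miR-181a-5p, which other kidney cells may also express. The 4 erythroid miRNAs (miR-451, both arms of miR-144, and miR-486-5p) summed to 1107 to 2084 CPM at day 28 and 1293 to 3380 CPM at day 0. Their libraries overlapped and none was called, although the median was -0.92; miR-144-3p, for example, had 18.3, 11.5 and 28.4 CPM at day 28 and 53.1, 54.7 and 28.1 CPM at day 0. The part that cell content plays in the other changes was not tested. miR-122-5p of liver, miR-124-3p of neurons and miR-216a-5p of pancreas had between 0 and 5 reads summed over the libraries of either day, while the 9 kidney-enriched miRNAs in the file summed to 407400 to 440455 CPM at day 28 and 346595 to 428051 CPM at day 0.

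**Figure D2:**
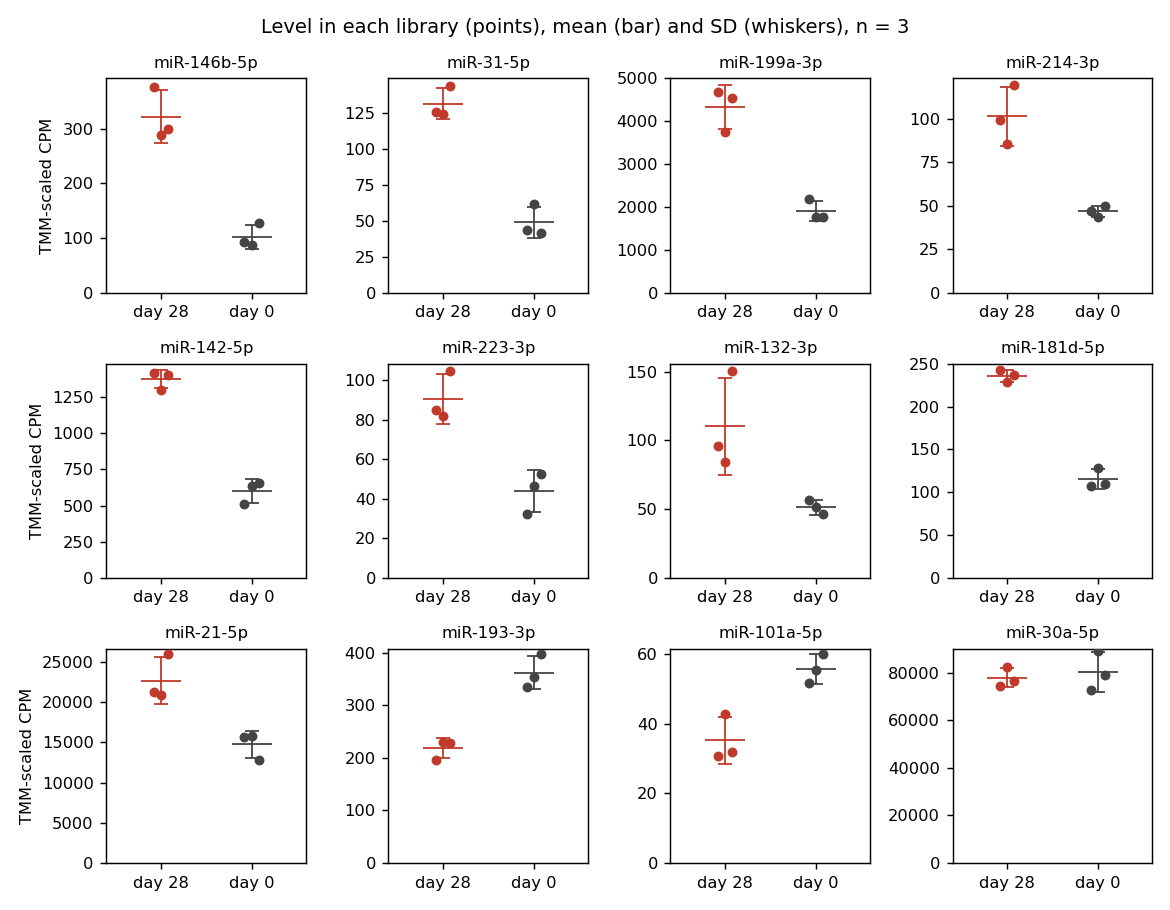
Each panel shows 1 miRNA in TMM-scaled CPM, with a point for each of the 3 day 28 libraries (red, left) and the 3 day 0 libraries (grey, right), a bar at the mean and whiskers of 1 SD. In 11 panels the days do not overlap; in the panel of miR-30a-5p, which was not called, they do.

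The largest rise among miRNAs at 10 CPM or more was that of miR-146b-5p. It is on the list of NF-kB-induced miRNAs used here and represses the signalling adaptors IRAK1 and TRAF6. It lies at chr19:46342790-46342811 in an intron of Mfsd13a. The day 28 libraries held 377, 289 and 299 CPM and the day 0 libraries 92.2, 87.2 and 128 CPM. Its level was thus 3.14-fold that of day 0 (log2 fold change 1.65, SE 0.20, adjusted p = 8.17e-06), with no overlap. Its near twin miR-146a-5p, which has the same seed and is induced by NF-kB, had 531, 435 and 393 CPM at day 28 and 215, 200.2 and 339.5 CPM at day 0 (0.88, adjusted p = 0.00688). Its lowest day 28 library stood only slightly above its highest day 0 library, and without the first day 28 library the adjusted p was 0.0527.

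Over days 1, 2, 3, 7, 14 and 28, the log2 fold change of miR-146b-5p over day 0 was 1.17, 1.52, 2.63, 2.68, 2.80 and 1.65. That of miR-146a-5p over the same days was -0.59, -0.82, 0.091, 0.46, 1.04 and 0.88. miR-146a-5p was called lower on days 1 and 2 and higher on days 14 and 28, whereas miR-146b-5p was called higher on every day. From day 14 to day 28, miR-146b-5p came down (-1.15, adjusted p = 0.00164), and the change of miR-146a-5p was -0.16 (adjusted p = 0.634). Of the 8 tested miRNAs of the NF-kB list, 5 were called higher, against 11.1% of all tested miRNAs, and none lower, with a median of 0.75. The 3 not called were miR-155-5p, miR-9-5p and miR-125b-5p. All 5 calls recur in other lists: miR-146a-5p in the leukocyte list, the others in the injury and fibrosis list described below.

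miR-31 followed in size. miR-31-5p, known from wounded epithelium and from T cells, had 126, 125 and 144 CPM at day 28 and 43.5, 61.4 and 41.7 CPM at day 0 (log2 fold change 1.43, SE 0.19, adjusted p = 2.02e-05). Every day 28 library was well above the highest day 0 library. Its other arm, miR-31-3p, had 8 to 16 reads per library at day 28 and 1 to 2 at day 0, so that day 0 stood at or under the limit of 3 reads. It was called higher in the same fit. Mean miR-31-5p over the 7 days of collection was 48.9, 144, 183, 179, 185, 154 and 131 CPM. The difference of day 28 minus day 7 was -0.49 (adjusted p = 0.0515), and that of day 28 minus day 14 was -0.18 (adjusted p = 0.538).

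miR-132 and miR-212, a pair of neighbouring hairpins on chromosome 11 that is induced through CREB and known from activated pericytes and neurons, were higher on all 4 arms. miR-132-3p had 95.5, 84.5 and 151 CPM at day 28 and 56.5, 51.3 and 46.0 CPM at day 0 (1.05, adjusted p = 0.000821 in limma). The third day 28 library was the highest by far, and all 3 lay above day 0. miR-212-3p, with the same seed, had 10.3, 10.5 and 18.3 CPM at day 28 and 8.07, 6.88 and 4.63 CPM at day 0 (0.88, adjusted p = 0.0158). The passenger arms were scarce: miR-132-5p was called at 0.93 and miR-212-5p at 1.01. The miR-212-3p call held in 14 of 18 alternative analyses, and was lost without the third day 28 or the third day 0 library (adjusted p = 0.119 and 0.0908), and the miR-132-5p call held in 10 of 17. The difference of day 28 minus day 7 was -1.54 for miR-132-3p and -1.77 for miR-212-3p.

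miR-21-5p, processed from a transcript that overlaps Vmp1 and the best known miRNA of renal fibrosis, was still higher, by less than at any other day after folic acid. It had 21226, 20865 and 25999 CPM at day 28 and 15616, 15742 and 12862 CPM at day 0 (log2 fold change 0.62, SE 0.15, adjusted p = 0.00778). The days did not overlap, and the third day 28 library was the highest and the third day 0 library the lowest. Leaving out either of these 2 libraries gave adjusted p-values of 0.0591 and 0.0548. The mean level over the 7 days of collection was 14739.8, 59412, 77268, 75152, 76341, 44483 and 22696 CPM, and day 28 minus day 7 was -1.75 (adjusted p = 1.16e-07). As a share of all miRNA reads, miR-21-5p held 2.04% ± 0.307 at day 28 and 1.40% ± 0.151 at day 0, and 7.76% ± 0.580 at day 7. Its other arm, miR-21-3p, was not called: it had 177, 196 and 225 CPM at day 28 and 188, 196 and 124 CPM at day 0, with overlap and a 95% interval of -0.15 to 0.66. let-7i-5p was the only called member of 9 in the let-7 family, near the 11.1% of all tested miRNAs called higher, with 4137, 3753 and 4613 CPM at day 28 and 2976, 2624 and 2479 CPM at day 0 (0.63, adjusted p = 0.00305); with upper-quartile scaling, 2 other members were called lower.

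In all, 11 of the 15 tested miRNAs of the injury and fibrosis list were called higher, against 11.1% of all tested miRNAs, and none lower, with a median of 1.09. That list was drawn from knowledge of this model, to which work on folic acid kidneys contributed, so it is not independent evidence of its direction. It contains all the mesenchymal miRNAs. The 4 not called were miR-21-3p, miR-18a-5p, miR-34a-5p and miR-192-5p. miR-34a-5p, a target of p53, had 81.6, 83.7 and 96.9 CPM at day 28 and 62.5, 57.2 and 66.3 CPM at day 0 (0.49, adjusted p = 0.158), and none of the 5 members of the p53 list was called. miR-18a-5p, of the proliferation-linked miR-17 to miR-92 cluster, had 11.3, 13.5 and 14.5 CPM at day 28 and 13.0, 10.1 and 9.84 CPM at day 0, with overlap. None of the 16 members of those clusters was called, and their median was 0.075.

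**Figure D3:**
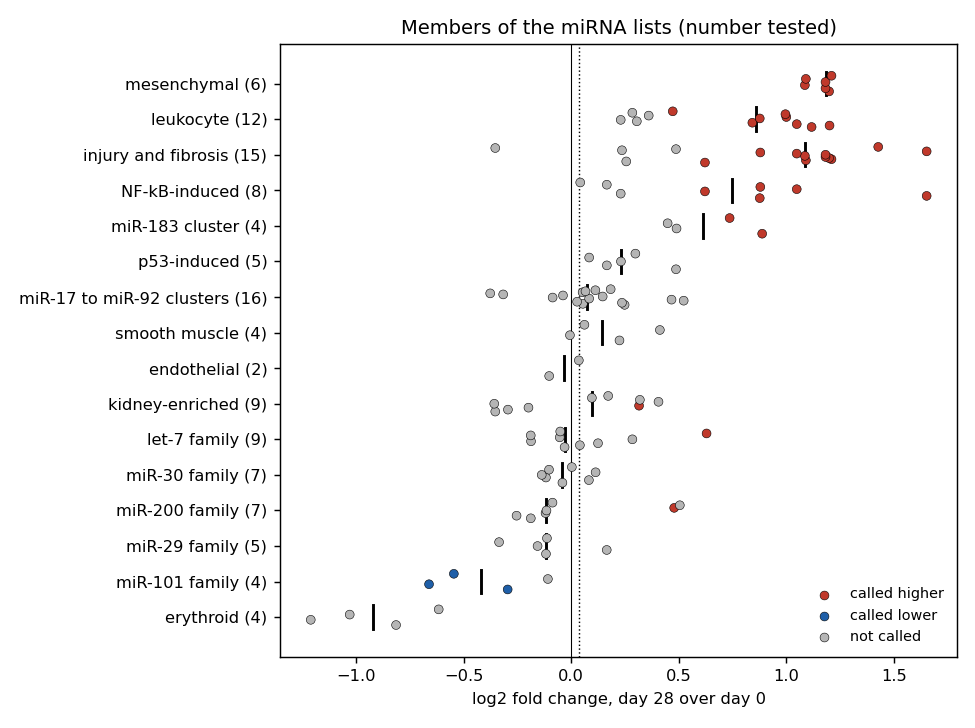
Each row is a list of miRNAs with the number tested, each point the log2 fold change of 1 member, day 28 over day 0, coloured red when called higher, blue when called lower and grey when not called; the short bar is the median of the list and the dotted line the median of all 431. Every mesenchymal miRNA lies above 1, the miR-30 and endothelial lists lie around 0, and 3 of 4 miR-101 members are called lower.

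Of 4 members of the miR-181 family described here (5p arms), 3 were called higher at day 28, against 11.1% of all tested miRNAs. The family is not one of the lists, and miR-181b-5p and miR-181c-5p are named after their values were seen. miR-181 is known from lymphocyte development and is also found in many other tissues. miR-181a-5p, with 27771, 26661 and 26811 CPM at day 28 and 17629, 22974 and 18374 CPM at day 0, was the most abundant miRNA called higher (log2 fold change 0.47, SE 0.10, adjusted p = 0.00295). miR-181c-5p had 1910.4, 1849 and 1928 CPM at day 28 and 975, 1241 and 1039 CPM at day 0 (0.81, adjusted p = 1.86e-05). miR-181d-5p, whose hairpin lies next to that of miR-181c in an intron of Nanos3 on chromosome 8, had 243, 228 and 237 CPM at day 28 and 107, 128 and 109 CPM at day 0 (1.04). In each of the 3 the day 28 libraries were tightly grouped and lay above day 0. The fourth member, miR-181b-5p, had 1293, 1229.8 and 1338 CPM at day 28 and 1089.7, 1219 and 1070.1 CPM at day 0; these did not overlap, but its log2 fold change of 0.19 was not called (95% interval -0.039 to 0.43).

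miR-181a-5p changed direction within the course. Its log2 fold change over day 0 was -0.45, -0.59, -0.65, -0.26, 0.25 and 0.47 on days 1, 2, 3, 7, 14 and 28. It was called lower on days 1, 2, 3 and 7 and higher on day 28, and day 28 exceeded day 7 by 0.74 (adjusted p = 2.14e-05). miR-181c-5p, lower on days 1, 2 and 3, was higher on days 14 and 28, with -0.42, -0.47, -0.55, 0.20, 0.62 and 0.81 over the same days. miR-181d-5p was not lower early: it was called higher on days 2, 3, 7, 14 and 28. miR-497-5p, which belongs to the growth-restraining miR-15 and miR-16 family, had 541, 579 and 567 CPM at day 28 and 380.0, 429.5 and 427 CPM at day 0 (0.45, adjusted p = 0.0127), and its values over the course were -0.35, -0.40, -0.21, 0.081, 0.26 and 0.45. It is named here after its values were seen, as is its cluster partner miR-195-5p (0.56, adjusted p = 0.00101). In miR-181a-5p, miR-181c-5p, miR-497-5p and miR-195-5p, day 28 was higher than day 7 by the contrast between those days. The call of miR-497-5p did not hold with upper-quartile scaling (adjusted p = 0.0663), library totals (adjusted p = 0.0835) or without the first day 0 library (adjusted p = 0.0707).

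**Figure D4:**
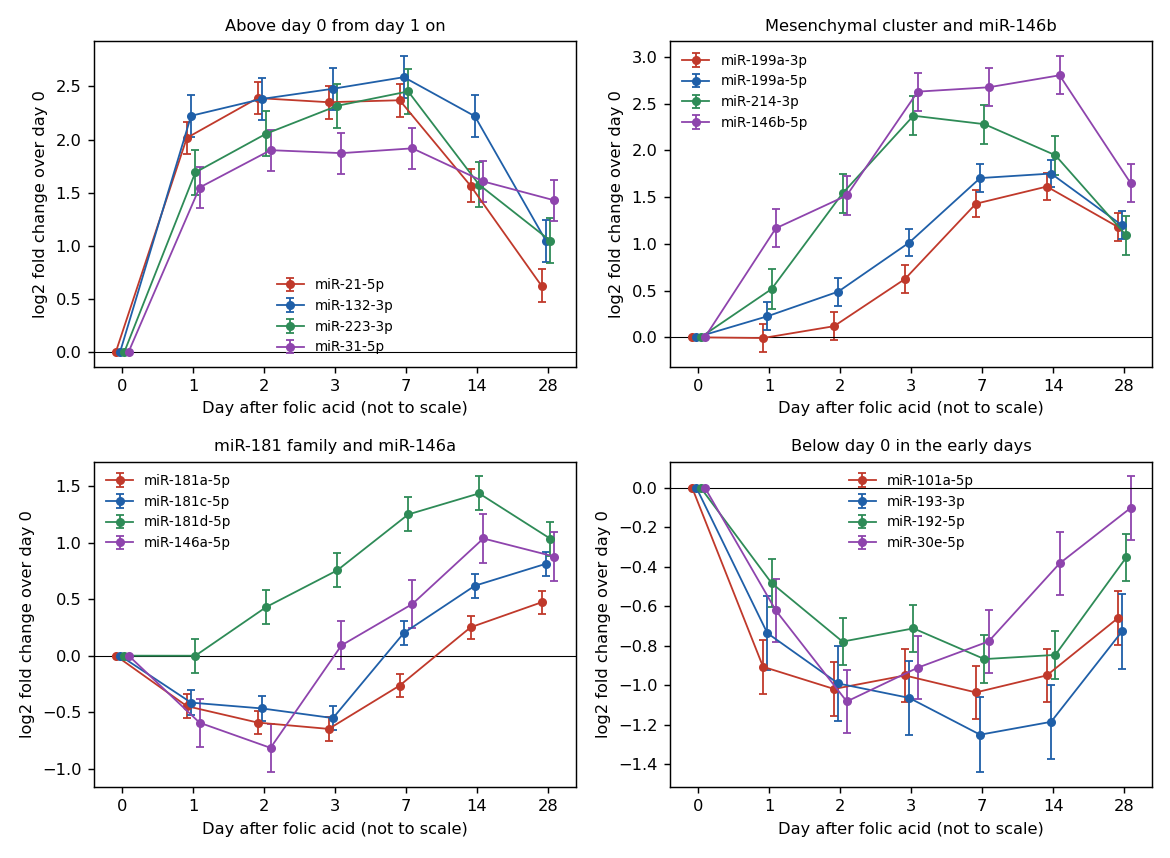
Each panel plots the log2 fold change over day 0 (vertical axis) by day of collection (horizontal axis, not to scale) for 4 miRNAs, with whiskers of 1 SE from the limma fit; all points share the day 0 libraries. miR-132-3p, miR-223-3p and miR-21-5p come down from between 2.37 and 2.59 on day 7, miR-199a-3p and miR-146b-5p are highest on day 14, miR-181a-5p crosses 0 between days 7 and 14, and miR-101a-5p and miR-193-3p stay below 0.

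The falls were fewer and smaller. All 7 that met the rule for named miRNAs are given here. Of the 4 tested members of the miR-101 list, 3 were called lower, against 1.86% of all tested miRNAs. These 3 are not separate readings. miR-101a-5p and miR-101a-3p are arms of the same hairpin, with different seeds, and the sequence of miR-101c is contained in miR-101a-3p. miR-101a-5p had 30.8, 42.9 and 31.8 CPM at day 28 and 51.6, 55.5 and 59.9 CPM at day 0 (log2 fold change -0.66, SE 0.14, adjusted p = 0.00168). The abundant arm, miR-101a-3p, represses the histone methyltransferase Ezh2. It had 10022, 11493 and 10585 CPM at day 28 and 13112, 14011 and 12272 CPM at day 0 (-0.30, adjusted p = 0.0343). miR-101c had 78.2, 81.6 and 92.5 CPM at day 28 and 125, 126 and 118 CPM at day 0 (-0.55, adjusted p = 0.00185). In all 3 every day 28 library lay below every day 0 library. The miR-101a-3p call held in 12 of 18 alternative analyses; it was lost with no filter, with the compared days alone and without the first or the third day 28 library or the first or the second day 0 library, at adjusted p-values up to 0.177. miR-101b-3p, from another hairpin, had 789, 817 and 793 CPM at day 28 and 869, 928 and 795 CPM at day 0, with overlap, and was not called.

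miR-193-3p, which injures podocytes when it is overexpressed in mice, had 197, 229.9 and 228 CPM at day 28 and 335, 354 and 397 CPM at day 0 (-0.73, adjusted p = 0.0118). Without the first day 28 library or the third day 0 library the adjusted p was 0.0617 and 0.0548. Day 28 lay wholly below day 0 and was higher than day 7 (day 28 minus day 7 0.52, adjusted p = 0.0348). miR-193b-3p, with the same seed, had 29.1, 31.1 and 30.8 CPM at day 28 and 29.2, 28.5 and 30.7 CPM at day 0, overlapping, with a 95% interval of -0.37 to 0.45. It lies outside the rule for named miRNAs and is given after its values were seen. miR-33-5p, encoded in an intron of Srebf2 and a repressor of the cholesterol exporter Abca1, had 14.0, 14.5 and 11.6 CPM at day 28 and 25.5, 23.1 and 20.3 CPM at day 0 (-0.74, adjusted p = 0.00462). Its days did not overlap, and its log2 fold changes over day 0 were -0.63, -0.71, -0.84, -0.85, -0.54 and -0.74 on days 1, 2, 3, 7, 14 and 28. The remaining falls were smaller or less stable. miR-378-5p, from an intron of Ppargc1b, was called at -0.37 (adjusted p = 0.0457). miR-720, a sequence of tRNA origin that was later removed from the miRNA registry, was called at -0.80 (adjusted p = 0.0482). The miR-378-5p call held in 11 and the miR-720 call in 9 of 18 alternative analyses.

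Among the kidney-enriched miRNAs, 1 of 9 tested was called higher and none lower, with a median of 0.096; 11.1% of all tested miRNAs were called higher, so the count is that of the background. The 1 was miR-204-5p, a tubular miRNA from an intron of Trpm3, with 387, 396 and 397 CPM at day 28 and 325, 296 and 327 CPM at day 0 (0.32, adjusted p = 0.0369); this call held in 6 of 18 alternative analyses and in none of the other 3 scalings. miR-192-5p, abundant in tubular epithelium, had 90859, 106443 and 86959 CPM at day 28 and 124500.0, 129013 and 109143 CPM at day 0. Every day 28 library was below every day 0 library, but the log2 fold change of -0.35 missed the threshold (adjusted p = 0.0564). With the other 3 scalings it was called lower, at -0.40, -0.48 and -0.44. It was higher at day 28 than at day 7 (0.51, adjusted p = 0.00237) and at day 14 (0.49, adjusted p = 0.0127). As a share of all miRNA reads, it held 8.47% at day 28, 6.82% at day 7 and 11.4% at day 0.

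miR-10a-5p, encoded in a Hox cluster, had the highest mean level at day 0, though it was not the highest in the first day 0 library. It had 185538, 172271 and 167290.0 CPM at day 28 and 108567, 150135 and 141131 CPM at day 0. The days did not overlap, and the log2 fold change of 0.41 had an adjusted p of 0.0979. miR-22-3p had 99512, 110629 and 97867 CPM at day 28 and 121714, 119222 and 124013 CPM at day 0 (-0.25, adjusted p = 0.0979), and was called lower with upper-quartile scaling and with library totals.

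The miR-30 family, abundant in tubules and podocytes, did not differ detectably from day 0. None of its 7 members was called, and the median was -0.041. miR-30a-5p had 74659, 82373 and 76756 CPM at day 28 and 72740.0, 89377 and 79082 CPM at day 0, overlapping, and the 95% interval of the log2 fold change was -0.28 to 0.19. All 7 members were called higher at day 28 than at day 7, as were 16.5% of all tested miRNAs. The difference was 0.58 for miR-30a-5p (adjusted p = 0.0005) and 0.89 for miR-30e-3p (adjusted p = 1.39e-05). As a share of all miRNA reads, miR-30a-5p held 6.97% at day 28 and 5.33% at day 7. miR-29 members, which repress collagen genes, were not called either: of 5, none passed, with a median of -0.12. The lowest of them, miR-29c-3p, had 641, 744 and 595 CPM at day 28 and 761, 753 and 997 CPM at day 0 (-0.34, adjusted p = 0.126), and was called lower with upper-quartile scaling alone. Of these miR-29 members, 3 were called higher at day 28 than at day 7, against 16.5% of all tested miRNAs. That share was lower with library totals.

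In the miR-200 family, which maintains the epithelial state by repressing Zeb1 and Zeb2, 1 of 7 was called higher, against 11.1% of all tested miRNAs, and none lower, with a median of -0.12. miR-200c-3p had 219, 194 and 193 CPM at day 28 and 117, 153 and 168 CPM at day 0 (0.48, adjusted p = 0.027), and its hairpin partner miR-141-3p had 1436, 1321 and 1148 CPM at day 28 and 709.7, 1032 and 1041 CPM at day 0 (0.50, adjusted p = 0.0511). Both were apart between the days. The members of the other hairpin cluster, miR-200a-3p, miR-200b-3p and miR-429-3p, had log2 fold changes of -0.19, -0.12 and -0.087. The miR-200c-3p call did not hold with the other 3 scalings or without the first or the third day 28 library or the first day 0 library (adjusted p up to 0.178), and with upper-quartile scaling 2 other members were called lower.

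The miR-183 cluster, first known from sensory cells, gave 2 calls among 4 tested members, both higher, against 11.1% of all tested miRNAs. miR-183-5p had 225, 200.3 and 211 CPM at day 28 and 103, 142 and 101 CPM at day 0 (0.89, adjusted p = 0.00499). miR-182-5p, whose mature sequence lies 3725 bases away on chromosome 6, had 4109, 4073 and 4239 CPM at day 28 and 2099, 3024 and 2417 CPM at day 0 (0.74, adjusted p = 0.0229). Both were higher in every day 28 library than in any of day 0. The miR-182-5p call held in 13 of 18 alternative analyses; it was lost with no filter and without the first or the third library of either day, at adjusted p-values up to 0.126. miR-96-5p, from the same cluster and with overlapping libraries, had 14.7, 9.19 and 17.7 CPM at day 28 and 7.55, 8.41 and 13.6 CPM at day 0 and was not called. The median of the cluster was 0.61.

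The arms of a hairpin can give a second reading of the same transcript. Both arms were tested for 31 pairs in which at least 1 arm was called. In 13 of them both arms were called, and in these 13 they moved in the same direction. miR-199a, miR-214, miR-142, miR-223, miR-31, miR-132, miR-212 and miR-101a were among them. So was miR-199b, whose 3p arm has the same reads as miR-199a-3p and is not a separate reading. Most calls were higher (48 of 56), so a shared direction carries little weight. In the other pairs 1 arm alone passed, and the arms of miR-467d had opposite signs (0.90 for 5p, called, and -0.21 for 3p, not called).

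The end of the course was also set against its middle. Between day 28 and day 7, 160 of 431 miRNAs (37.1%) differed, 71 (16.5%) higher and 89 (20.6%) lower at day 28. With library totals that split was 30 higher and 120 lower, and the median of all tested miRNAs was then -0.21. Calls of day 28 above day 7, here and elsewhere in the text, thus depend on the scaling. Between day 28 and day 14, 53 (12.3%) differed, 20 (4.64%) higher and 33 (7.66%) lower. That count fell to 12 without the second day 28 library, to 13 without the third day 14 library and to 35 without the first day 28 library. These comparisons share the day 28 libraries with the comparison with day 0. Among the named miRNAs, miR-223-3p was lower at day 28 than at day 7 by the contrast (-1.40, adjusted p = 4.14e-05), as was miR-142-3p (-0.96, adjusted p = 0.000488). For miR-142-5p the difference was -0.35 (adjusted p = 0.0639), and for miR-181d-5p -0.21 (adjusted p = 0.279).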

How the data were processed

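Small RNA was sequenced from whole mouse kidney with the TruSeq small RNA kit on a HiSeq instrument, per the labels' protocols. CASAVA 1.8 and the genome build mm9 are named in the submitters' processing notes. Which aligner, counting tool and miRBase release were used is not given in the sources used here. The authors deposited 1 table of CPM for 1125 miRNAs; each column has the same total, and 250 miRNAs had no read in any library. Whole reads were recovered from the CPM steps for 100% of values within 0.05 of a read, giving 2875675 to 7110546 reads assigned to miRNAs per library.

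The filter was edgeR's filterByExpr (minimum count 10) on the recovered reads, which left 431 miRNAs. TMM factors (edgeR 4.0.16) scaled the CPM, and limma 3.58.1 (limma-trend, R 4.3.3) was fitted to log2(CPM + 1) over all 21 libraries with 1 mean per day, so that the 3 libraries of each day share 1 estimate of the spread. The contrasts were day 28 against day 0, day 7 and day 14. The scripts were tested on simulated data. On the recovered reads, edgeR's quasi-likelihood test called 52 miRNAs between day 28 and day 0 and DESeq2 1.42.0 called 53. The other alternatives were RLE and upper-quartile scaling, library totals, pseudocounts of 0.5 and 4, no filter, a filter of mean 10 CPM, the compared days alone, robust empirical Bayes, a replicate block and leaving out each library.

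The miRNAs named were the 14 largest rises and falls among calls whose mean reached 10 CPM and that showed no overlap between the days (13 distinct rises, because miR-199a-3p and miR-199b-3p share reads, and 7 falls), the members of 19 lists, the 10 most abundant miRNAs of day 0, and their other arms. Others outside this rule, such as miR-181c-5p and miR-193b-3p, were named after their values were seen. The comparison, its members and these lists were chosen with earlier results of these data known. Besides the lists described in the text, those for hypoxia (miR-210, 2 tested) and striated muscle (1 tested of 6 in the file) gave no call, and that of other organs gave 1, miR-375-3p. Hosts are from the GENCODE annotation of GRCm38, and sequences and positions from RefSeq.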

Additional observations from a re-analysis of the deposited data

Results flagged for a closer look

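The 13 named miRNAs listed below differed from day 0 at day 28, and the effect at day 28 also differed from the effect at day 7. The latter was tested by the limma contrast of day 28 minus day 7 in the same fit. Both effects are measured against the same day 0 libraries. The list is not complete, as other named miRNAs described in the Results also differed from both days.

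Among the miRNAs higher than day 0, the day 28 level was lower than that of day 7 for miR-132-3p (-1.54 on the log2 scale, adjusted p = 8.3e-06), miR-223-3p (-1.40, adjusted p = 4.14e-05) and miR-214-3p (-1.19, adjusted p = 0.000212). The same held for miR-146b-5p (-1.02, adjusted p = 0.000631), miR-142-3p (-0.96, adjusted p = 0.000488) and miR-342-3p (-0.71, adjusted p = 0.004). Smaller differences were those of miR-214-5p (-0.58, adjusted p = 0.0105) and miR-199a-5p (-0.51, adjusted p = 0.0112).

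Day 28 was above day 7 for miR-181a-5p (0.74, adjusted p = 2.14e-05), the one of the 13 that was called lower than day 0 at day 7 and higher at day 28. It was also above day 7 for 4 miRNAs that were lower than day 0 at day 28: miR-193-3p (0.52, adjusted p = 0.0348), miR-101a-3p (0.41, adjusted p = 0.00155), miR-101c (0.39, adjusted p = 0.0107) and miR-101a-5p (0.38, adjusted p = 0.0351). With library totals, fewer miRNAs were called above day 7, so the size of these differences depends on the scaling.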

How the results depend on the processing

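The comparison of day 28 with day 0 was repeated under 18 alternatives, and no called value changed sign in any of them. Counts of calls ran from 41 to 69, except that leaving out 1 library in turn gave 37 to 57, the lowest without the first day 28 library. Of the 56 calls, 32 (29 higher, 3 lower) held in every alternative that gave a value, among them miR-146b-5p, miR-31-5p, both arms of miR-142, miR-199a-5p, miR-181d-5p, miR-33-5p, miR-101a-5p and miR-101c, and 16 were lost in 5 or more. Leaving out 1 library gave 108 to 145 calls between day 28 and day 7 and 12 to 68 between day 28 and day 14. Between day 28 and day 14, 19 were called with no filter and 25 with the compared days alone, against 53; the cause was not tested. DESeq2 split its calls between day 28 and day 0 into 38 higher and 15 lower, and the fit of the compared days alone into 44 and 16. With the other filters, 41 (no filter) and 45 (mean 10 CPM) were called between these days.

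Deviations of day 28 and day 0 libraries with the same replicate number had correlations of -0.0966 to 0.134 over 3 pairs. Those of the other pairs were -0.140 to 0.169. The labels do not say whether libraries with the same number share a mouse or a batch, and 3 pairs are too few to tell. With the replicate block, 54, 154 and 52 miRNAs were called between day 28 and days 0, 7 and 14. Precision is limited by 3 libraries per day and, for the 151 tested miRNAs with a mean under 10 CPM, of which 16 were called, by reads.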

Other observations

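The called miRNAs below, other than miR-375-3p of the other organs list, lie outside the rule for named miRNAs. They are given here after their values were seen. miR-298-5p and miR-296-5p, from neighbouring hairpins in the imprinted Gnas region on chromosome 2, were both higher. miR-298-5p had 9.38, 7.14 and 8.18 CPM at day 28 and 2.34, 1.91 and 3.18 CPM at day 0 (log2 fold change 1.42, adjusted p = 0.000702 in limma). miR-296-5p had 6 to 8 reads per library at day 28 and 0 to 1 at day 0, where it stood under the limit of 3 reads. Both arms of miR-676, from an intron of Eda on the X chromosome, were higher: miR-676-3p had 109, 109 and 117 CPM at day 28 and 60.7, 59.9 and 59.3 CPM at day 0 (0.88, adjusted p = 0.000821), and miR-676-5p rose by 0.91. Over days 1, 2, 3, 7, 14 and 28 the log2 fold changes of miR-676-5p over day 0 were 0.083, 0.055, 0.23, 0.58, 0.69 and 0.91.

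miR-148a-3p, an abundant miRNA, had 3772, 3612 and 3899 CPM at day 28 and 2345, 2581 and 2035 CPM at day 0 (0.70, adjusted p = 0.0127), a call lost without the third day 28 or the third day 0 library (adjusted p = 0.0503 and 0.0645); miR-148b-3p and miR-152-3p, with the same seed, were not called (0.042 and -0.0052). miR-130b-3p had 16.4, 16.8 and 19.8 CPM at day 28 and 7.81, 11.7 and 7.82 CPM at day 0 (0.90, adjusted p = 0.00099), and miR-130a-3p, with the same seed, was not called (0.21). miR-375-3p, best known from pancreatic islets, had 287, 301 and 314 CPM at day 28 and 201, 186 and 179 CPM at day 0 (0.67, adjusted p = 0.00185), with -1.14 for day 28 minus day 7. The pancreatic miR-216a-5p and miR-217-5p had 0 and 1 reads summed over the day 28 libraries and 0 and 0 over the day 0 libraries. Among the falls, miR-187-5p had 5.77, 6.63 and 6.28 CPM at day 28 and 9.12, 12.8 and 13.9 CPM at day 0 (-0.82, adjusted p = 0.0127), a call lost without the first day 28 or the third day 0 library (adjusted p = 0.0569 and 0.0665).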
